A study of Mus musculus with 768 samples.

Results

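High endothelial venules (HEVs) let lymphocytes pass from blood into lymph nodes, and vessels with their surface epitope also form in tumours. The antibody MECA-79 binds that epitope, a sulfated glycan, and Chst4 is the sulfotransferase that adds the sulfate in lymph nodes. Described here are tumour cells that make Chst4 and the lymph node cells that make it: 41 MECA-79-positive tumour cells and, on the lymph node side, 63 and 81 cells on the plates pool1 and pool2, of 768 sequenced cells in all. They were chosen by their measured Chst4, at 10 CPM or more (counts scaled to a fixed library total), so the Chst4 values are a description. The comparison asks which lymph node genes are missing from tumour cells that do make the epitope enzyme.

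All members are single mouse cells sorted into wells as CD45-CD31+MECA79+. The LN_HEV cells came from lymph nodes (pool1, pool2) and the TU_HEV cells from PyMT tumours (pool3, pool4), a mouse model of mammary cancer, and the protocol describes bead removal of CD45- and EpCAM-bearing cells for the tumours. A further group, TU_EC, holds endothelial cells of PyMT tumours that lack MECA-79 (68, 81, 83 and 73 retained cells on 4 plates), and serves to define lymph node genes. No strain, age, treatment, lymph node site or animal is named in the labels. Each group therefore counts as 1 sample, tissue and plate cannot be told apart, and no test was made. Levels are counts summed over the cells of a group and scaled to CPM, and a cell holds a gene at 10 CPM or more. The 95% intervals cover counting error only, since PCR copies without molecular identifiers are not independent molecules.

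In a lymph node, sulfate, fucose and sialic acid are placed on branched sugar chains of mucin-like proteins such as Glycam1, and L-selectin on passing lymphocytes binds the finished structure. Fut7 adds the fucose and Gcnt1 starts a branch. The chemokine Ccl21a then stops the rolling lymphocyte, and Enpp2, which makes lysophosphatidic acid, helps it cross the vessel wall. The 250 bases before the transcription start of 4 genes are printed (RefSeq, GRCm38.p6): Chst4 because it chose the members, Glycam1 and Fut7 because most tumour members lack them, and Ubd because its summed level was nearly the same in both groups. They lie at chr8:110039335-110039584 (minus strand), chr15:103565082-103565331 (minus), chr2:25422992-25423241 (plus, 1 of 2 Fut7 starts in the table) and chr17:37193642-37193891 (plus). Capitals mark a match to GGG, any 3 bases and TTCC, a spacing found in many sites of the NF-kB factors that act downstream of the lymphotoxin receptor.
Chst4: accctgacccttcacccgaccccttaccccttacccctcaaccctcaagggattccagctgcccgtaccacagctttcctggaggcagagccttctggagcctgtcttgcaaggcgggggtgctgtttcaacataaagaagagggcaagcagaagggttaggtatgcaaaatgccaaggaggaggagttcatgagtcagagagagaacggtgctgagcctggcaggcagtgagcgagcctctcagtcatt
Glycam1: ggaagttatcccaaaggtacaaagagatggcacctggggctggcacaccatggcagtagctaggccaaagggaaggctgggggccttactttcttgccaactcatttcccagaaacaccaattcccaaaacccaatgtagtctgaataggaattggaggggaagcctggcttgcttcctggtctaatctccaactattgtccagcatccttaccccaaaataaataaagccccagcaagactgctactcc
Fut7: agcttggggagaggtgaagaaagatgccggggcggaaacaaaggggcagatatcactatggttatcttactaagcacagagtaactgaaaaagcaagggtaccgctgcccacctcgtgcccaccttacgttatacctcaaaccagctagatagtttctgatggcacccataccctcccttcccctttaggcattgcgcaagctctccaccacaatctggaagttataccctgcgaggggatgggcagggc
Ubd: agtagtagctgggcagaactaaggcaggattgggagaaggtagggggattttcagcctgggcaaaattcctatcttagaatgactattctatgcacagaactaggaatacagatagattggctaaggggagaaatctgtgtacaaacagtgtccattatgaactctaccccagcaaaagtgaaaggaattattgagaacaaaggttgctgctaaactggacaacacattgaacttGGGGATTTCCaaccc
Both strands were searched for this spacing and for TATAAA, and no window printed holds both. These 4 windows hold 1 match, in Ubd, which begins 15 bases before the start. Of the 32851 windows of this length in the table, 4.65% hold the spacing and 12.4% hold TATAAA. Of the 72 lymph node genes defined below 55 were found by symbol, and 4 of the 55 have the spacing (Ubd, Cxcl1, Pglyrp1 and Pde1b), which is 7.27% against 5.31% of all genes in the table. A match describes letters, not binding.

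Cells needed 50000 counts, 1000 genes, at most 30% mitochondrial counts and 2 of 5 endothelial genes. This left 50 and 48 TU_HEV cells on pool3 and pool4, of which 25 and 16 are members, and 65 and 82 LN_HEV cells, of which 63 and 81 are. Tumour members were deeper, at 637441 to 4002554 counts (median 1704219) against 96741 to 1678516 (median 1063826), and 3 counts over a group come to 0.0424 and 0.0205 CPM. The rule of selection leaves out 11 pool1 libraries. Compared gene by gene, these contain the counts of 19 TU_HEV libraries, at 90% or more of the genes with 5 or more counts, and 6 of the 19 are tumour members. S26 and S33 of pool1, which remain members, contain 1 TU_HEV library each. Without them, an alternative chosen after seeing the data, there were 73 lymph node genes in place of 72, again 11 held by no tumour member and 18 held by most.

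The 5 endothelial genes were part of the filter on cells, so their values describe the choice. Pecam1 was held by every member of both groups, and the 5 summed to 7155 CPM in tumour and 5335 CPM in lymph node members. The 6 epithelial and tumour markers had no count. The 6 leukocyte markers summed to 5.32 and 34.7 CPM, with Ptprc among the 4 at 0 counts in the tumour members. The 6 mural and fibroblast markers summed to 1.63 and 18.1 CPM, and the 6 lymphatic markers to 26.2 and 18.0 CPM. The 6 erythroid and platelet markers were far higher in the lymph node members, at 21.5 and 1742 CPM, with 422.2 CPM on pool1 and 2644 CPM on pool2. Pf4, 1 of these 6, made up 434.9 CPM of the lymph node sum.

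Chst4 split the tumour cells with few values between. In the tumour members it ran from 16.2 CPM through a median of 423.5 to 1088 CPM, and in the lymph node members from 108.9 through 958 to 3495 CPM, so the ranges overlap. Summed levels were 428 and 1137 CPM, 2.66-fold lower in the tumour. By plate they were 503 and 343.7 CPM on pool3 and pool4, and 811 and 1360 CPM on pool1 and pool2. Just inside the limit a pool4 cell had 16.2 CPM (40 counts), followed by 106.9 CPM in a pool3 cell. Just outside it a pool4 cell had 5.19 CPM (4 counts), and 50 of the 57 negative tumour cells had no Chst4 count. Chst4 lies on chromosome 8 from 110029153 to 110039740 (GRCm38).

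**Figure D1:**
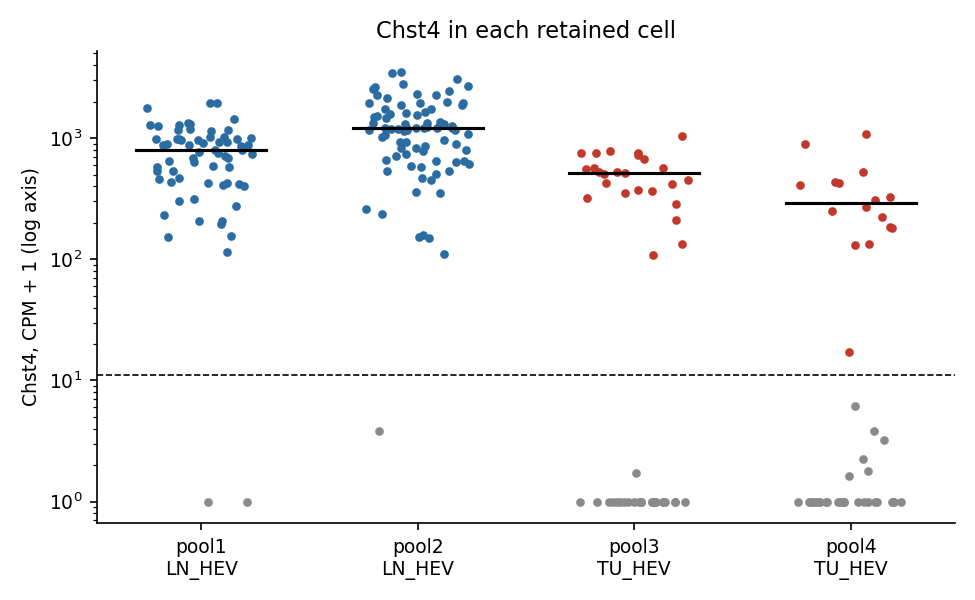
Chst4 level (CPM + 1, log axis) of each retained cell by plate, with members in colour, cells under the limit in grey, the limit of 10 CPM as a dashed line and the median of the members as a bar. Nearly all lymph node cells lie above the line, while pool3 and pool4 have 25 and 16 cells above it and 25 and 32 below.

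Lymph node genes were chosen on LN_HEV and TU_EC levels, with no TU_HEV value. They reached 50 CPM in the Chst4-positive lymph node cells, were held by at least 50% of these cells on pool1 and on pool2, and stood at least 10-fold above TU_EC. Because low tumour endothelial levels are part of the choice, the same counts are given without that rule. Of the 72 genes, 11 were held by no tumour member, 12 by fewer than 10%, 31 by 10% to under 50% and 18 by 50% or more. Held by no tumour member were 15.3% of the 72, against 0.926% of the 1296 genes that pass without the rule on TU_EC. Held by 50% or more were 25.0% of the 72, against 85.6% of the 1296.

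The levels show the same order. At least 4-fold lower in the tumour members were 45 of the 72, and 38 of them were so in every pair of plates. The share over all 7324 genes at 20 CPM in either group was 3.5%. The lymph node sums that chose the 72 are also the base of this ratio, and their TU_EC levels were low by choice. Both favour lower tumour values, so the count of 45 describes the set and its excess over 3.5% is partly built in. None was at least 4-fold higher, where the share over all genes was 7.52%, but genes chosen for being high in the lymph node and low in TU_EC had little room to be so, and nothing is read from this count. Of the 1296 genes with the same lymph node rules 4.09% were lower by 4-fold or more and 1.54% higher by that much. The median log2 ratio of tumour over lymph node was -2.83 for the 72 genes (-3.004 to -2.43 over the 4 pairs of plates), 0.25 for the 1296 and 0.33 for the 7324. Against the 57 Chst4-negative tumour cells, 52 of the 72 stood higher in the members (72.2%, beside 61.8% of the 1296 and 55.5% of the 7324).

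**Figure D2:**
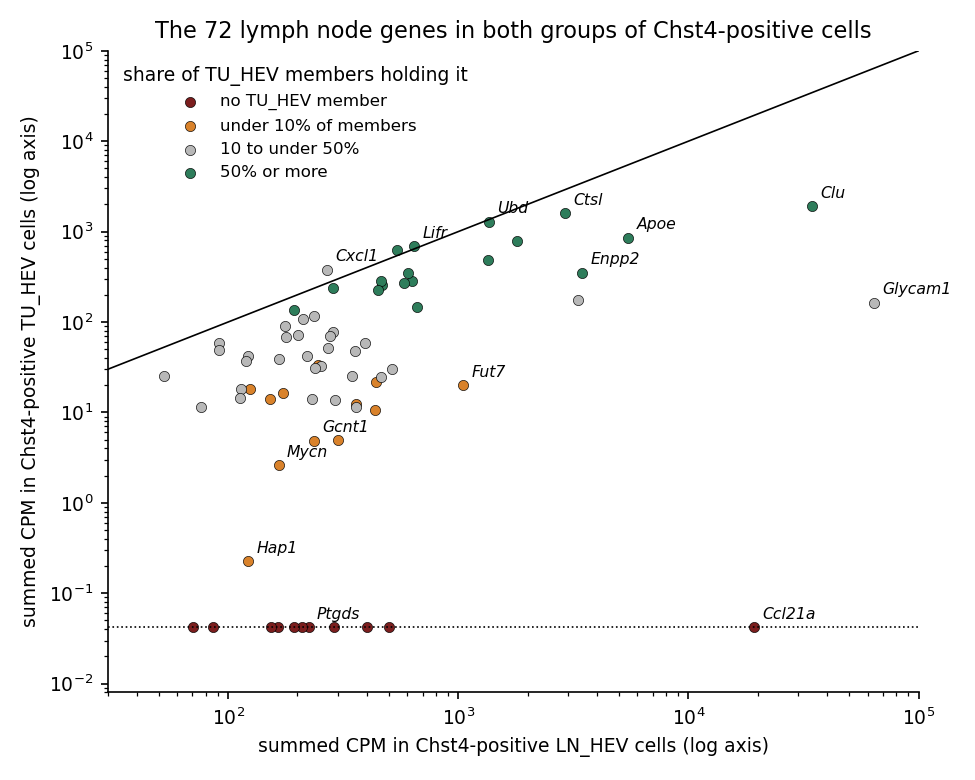
Summed CPM of the 72 lymph node genes in Chst4-positive LN_HEV (horizontal) and TU_HEV cells (vertical), both log axes, coloured by the share of tumour members that hold the gene. The solid line marks equal levels, and the 11 genes held by no tumour member are drawn on the dotted line at 3 counts, although Ccl21a had 2 counts and Ggt5 had 1.

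Single cells show how far apart the groups were. A tumour member held 10 to 43 of the 72 genes (median 24), a lymph node member 32 to 71 (median 60). The pool4 cell S325, the deepest tumour member, was the only one in the lymph node range. Medians were 21 and 25.5 on pool3 and pool4, against 59 and 60 on pool1 and pool2, and with every cell thinned to 50000 counts the group medians were 25 and 62. Chst4-negative tumour cells held 1 to 33 (median 12) and TU_EC cells 0 to 18 (median 5). Both were shallower than the tumour members, at medians of 1213189 and 625611 counts against 1704219, and thinned medians are not given for them. The part of depth in their lower counts was not tested.

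Values can also be set side by side for cells with a like Chst4 level, as a description, since Chst4 chose the members. Between the lymph node quartiles of Chst4, 584 and 1309 CPM, lay 9 tumour members (7 on pool3 and 2 on pool4), which held 14 to 31 of the 72 genes (median 26). The 72 lymph node cells in this range held 34 to 70 (median 60.5). The median log2 ratio of the lymph node genes between these subsets was -3.05.

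**Figure D3:**
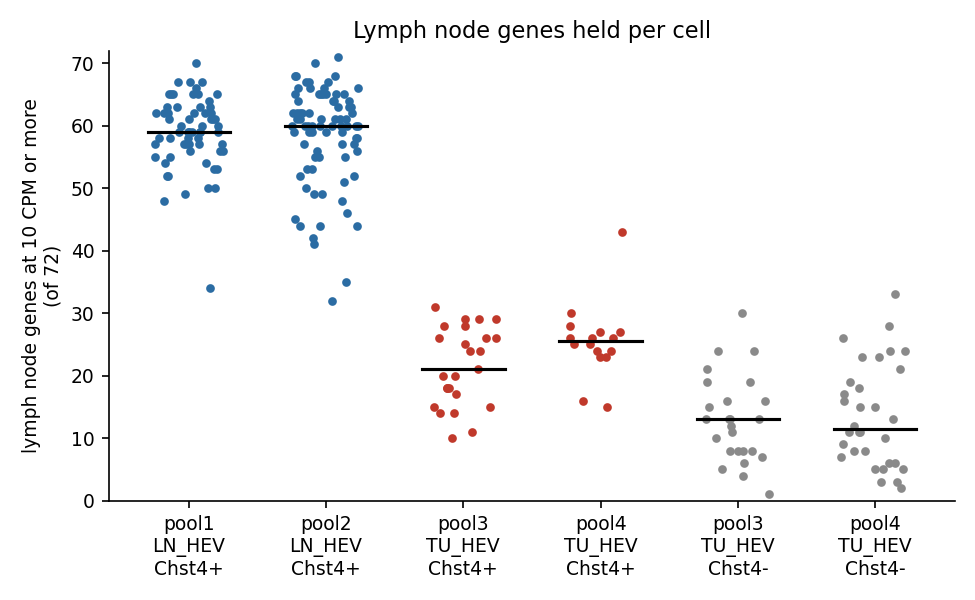
Number of the 72 lymph node genes at 10 CPM or more in each cell, by plate and Chst4 status, with medians as bars. Chst4-positive tumour cells have medians of 21 and 25.5 genes, between those of Chst4-negative tumour cells (13 and 11.5) and of lymph node cells (59 and 60).

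Of the 11 genes held by no tumour member, 10 are described: Ccl21a, Dclk1, Ggt5, Ptgds, Tox2, Ly6i, Nefh, Rassf6, Adcy5 and Snhg18. A count of 0 in 41 cells allows a share of up to 8.60%. Of the 11, 9 had no tumour count at all. In the lymph node the 11 were held by 52.8% to 96.5% of the members.

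Ccl21a, the CCR7 ligand, lies on chromosome 4 from 42772860 to 42773993. In lymph node members it ran from 0 through 16234 to 79711 CPM per cell, at 19343 CPM summed, and 81.9% held it. Among the tumour members 2 cells had 1 count each, 0.0283 CPM, for a ratio of 683728 (interval 189275 to 5645768). The members of the 2 tissues overlap only through lymph node cells that lack the gene. Other tumour endothelium did have Ccl21a. TU_EC stood at 1119 CPM, held by 3.93% of its cells, and the Chst4-negative tumour cells had 53 counts, 0.702 CPM. Near-identical copies of Ccl21a exist in mice, which makes its counts uncertain.

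Dclk1, a microtubule-associated kinase (chromosome 3 from 55242364 to 55539068), was the most widely held of the 11 in the lymph node. It ran from 0 through 329.01 to 2232 CPM per cell, with 384.2 and 411.4 CPM on pool1 and pool2, and 96.5% of cells held it. With no tumour count it was at least 9434-fold lower, taking 3 counts as the floor (the 95% interval starts at 7672).

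Ptgds and Ggt5 are enzymes. Ptgds, a prostaglandin D synthase (chromosome 2 from 25466709 to 25470046), stood at 223.5 CPM in the lymph node, was held by 61.8% of its cells and was at least 5266-fold lower in the tumour. Ggt5, which cleaves glutathione conjugates and leukotriene C4, stood at 289.5 CPM and was held by 82.6%, with 1 tumour count and a ratio of 20464 (interval 3673 to 808286).

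The other absent genes described were Tox2 (a nuclear HMG-box protein), Ly6i (a Ly6 family member with close relatives, so its counts are uncertain), Nefh (the neurofilament heavy chain), Rassf6 (a Ras association domain protein), Adcy5 (an adenylate cyclase) and Snhg18 (a noncoding RNA). Tox2 stood at 209.1 CPM and was held by 80.6% of lymph node members, and the tumour was at least 4928-fold lower. The bounds for Ly6i, Nefh, Rassf6, Adcy5 and Snhg18 ran from 1663-fold to 4542-fold. Without the rule on TU_EC 1 more gene was absent, Cd24a, a mucin-like surface protein, at 213.1 CPM in the lymph node, 31.2 CPM in TU_EC and no count in the tumour members.

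A list of 11 other lymph node HEV genes, 5 of them among the 72, was chosen with earlier results of these data known. Of these, 10 were at least 4-fold lower and 8 had no tumour count (median log2 ratio -11.93). The share at least 4-fold lower over all measured genes was 3.5%, but the count for the list restates its choice and is a description. Lrp2, an endocytic receptor, stood at 171.2 CPM in the lymph node, Ddr2, a collagen receptor, at 121.8 CPM and Robo2, a guidance receptor, at 110.1 CPM, all with 0 tumour counts. The exception was Lrg1, a secreted glycoprotein, held by every member. Lrg1 ran from 170.3 through 4909 to 15169 CPM in tumour and from 37.4 through 3234 to 14559 CPM in lymph node members, and its sum was 1.45-fold higher in the tumour (5541 against 3834 CPM).

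**Figure D4:**
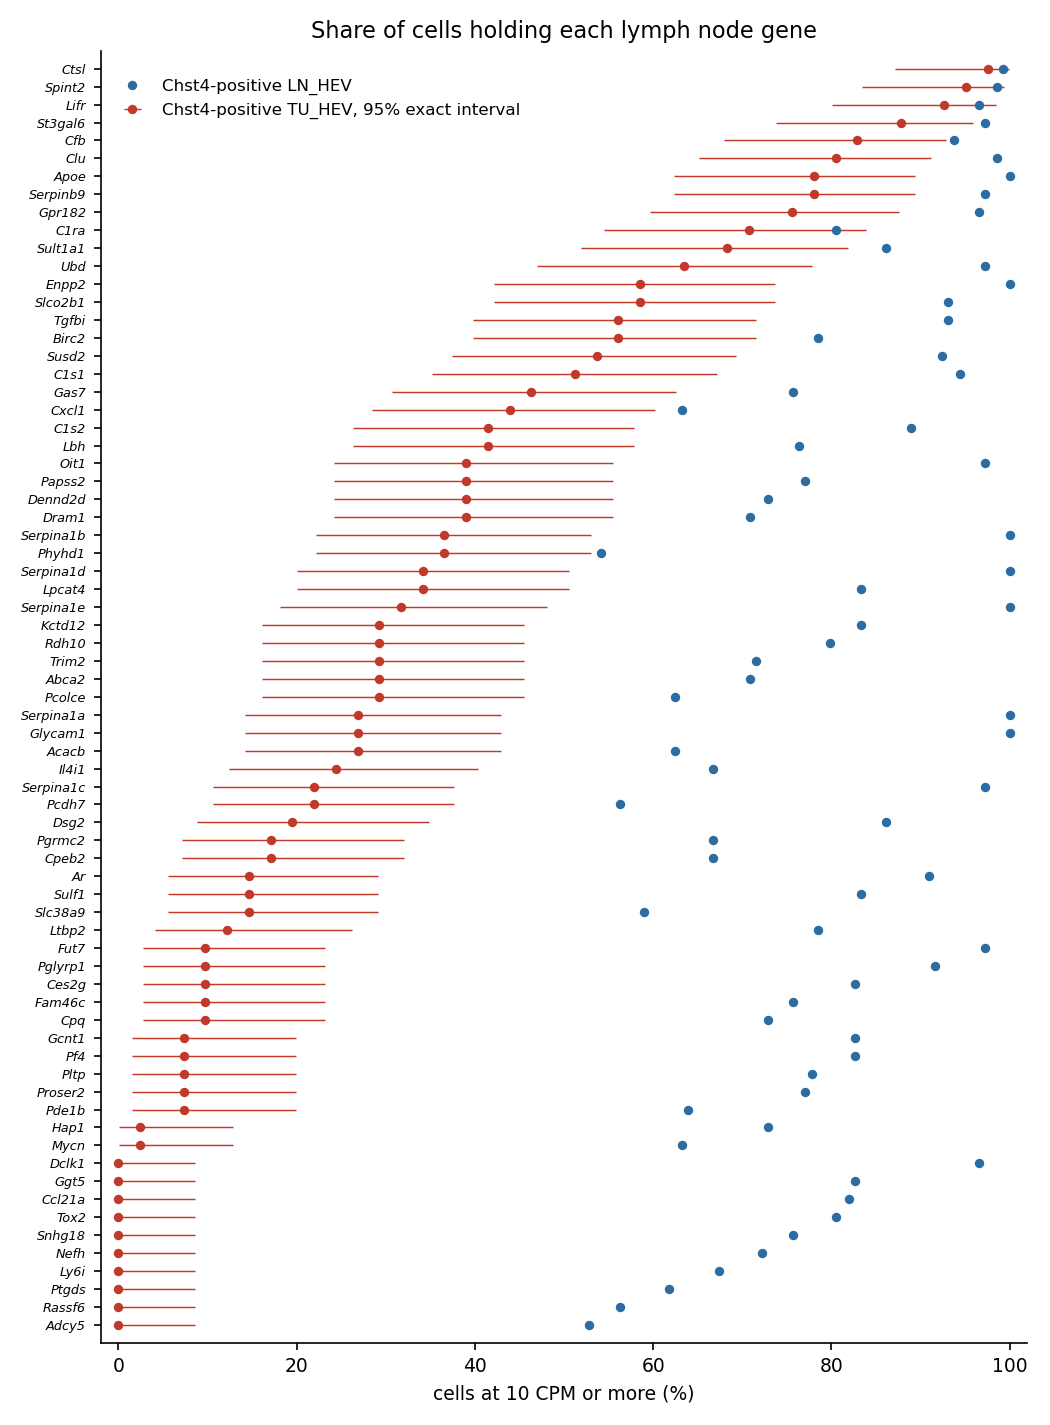
Share of cells holding each of 71 of the 72 lymph node genes at 10 CPM or more, in Chst4-positive TU_HEV (red, with exact 95% intervals) and LN_HEV cells (blue), ordered by the tumour share. Red points run from 0% for 10 genes to 97.6% for Ctsl, and each blue point lies to the right of its red one.

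Glycam1, the secreted sialomucin that carries the ligand (chromosome 15 from 103562759 to 103565081), was the most abundant lymph node gene. Every lymph node member held it, from 27.2 through 62142 to 175173 CPM. In the tumour 21 of the 41 members had no count, 11 held it (26.8%, interval 14.2% to 42.9%), and the highest had 3654 CPM. The cells overlap only at the low end of the lymph node values. Summed levels were 163.2 and 64265 CPM, 394-fold lower in the tumour (interval 387 to 401), with 218.05 and 102.2 CPM on pool3 and pool4. The pool3 cell S256 carried 54.4% of the tumour counts, and without it Glycam1 stood at 76.3 CPM and 842-fold lower.

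Wells of the tumour HEV plates that were too shallow to enter held Glycam1 as well, at 639.7 CPM on pool3 (77 counts) and 121.3 CPM on pool4 (25 counts). The shallow TU_EC wells had no Glycam1 count. The part of such reads in the members' low values was not tested.

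Fut7, the fucosyltransferase (chromosome 2 from 25423267 to 25426374), ran from 0 through 872.8 to 2912 CPM in lymph node members, and 97.2% held it. In the tumour 4 of 41 held it, at 196.7, 250.3, 275.9 and 397.8 CPM. All 4 were on pool3, and pool4 had no count. Summed levels were 20.0 and 1050 CPM, 52.4-fold lower in the tumour (interval 49.7 to 55.2). The pool3 cell S273 carried 40.9% of the tumour counts, and without it Fut7 was 86.8-fold lower.

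Of the 41 tumour members 11 held Glycam1 and 4 held Fut7, and none held both, while 97.2% of lymph node members did. Of the 57 Chst4-negative tumour cells 8 and 4 held them, again with none holding both. With so few holders in either group, little or no overlap can arise without any link, and nothing is read from it. Enpp2 was held by 9 of the 11 with Glycam1 and by 2 of the 4 with Fut7. None of the 41 held all of Glycam1, Fut7 and Enpp2, 11 held 2 of them, 17 held 1 and 13 held none.

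Gcnt1, which builds the core 2 branch of the ligand, was also rare. It ran from 0 through 186.6 to 915.0 CPM in lymph node members, while 3 of 41 tumour members held it and the highest had 117.8 CPM. Summed levels were 4.88 and 235.5 CPM, 48.3-fold lower (interval 43.4 to 53.8), and both tumour plates were low (5.02 and 4.72 CPM). The pool4 cell S335 carried 45.8% of the tumour counts, without which the difference was 87.4-fold. Of the other 10 rare genes, Mycn, a Myc family transcription factor, and Hap1, a partner of huntingtin, were held by 1 tumour member each. Pf4, a platelet chemokine that also stands in the erythroid and platelet marker list, was held by 3 tumour members and 82.6% of lymph node members, and 85.4% of its tumour counts lay in 1 cell, without which it was 273.2-fold in place of 41.3-fold lower. Pltp, a phospholipid transfer protein, Cpq, Ces2g, Pglyrp1, Fam46c, Proser2 and Pde1b were held by 3 or 4 members and stood 6.85-fold to 60.6-fold lower. The size of these differences changed with single cells. Without the tumour cell that held most of its counts, Pltp was 70.2-fold in place of 20.4-fold lower, Pglyrp1 110.7-fold in place of 60.6-fold, Cpq 52.9-fold in place of 28.8-fold, Proser2 21.1-fold in place of 10.8-fold and Pde1b 11.1-fold in place of 6.85-fold. Leaving out each gene's own top cell in this way, an alternative chosen after seeing the data, moved 16 of the 72 lymph node genes by over 1.5 times, 10 of them among the 12 rare ones, and 48 of the 72 were then at least 4-fold lower.

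Of the 31 genes held by 10% to under 50% of tumour members, 18 were at least 4-fold lower, and the median log2 ratio was -2.41. The protease inhibitors Serpina1a to Serpina1e stood 16.3-fold to 31.5-fold lower. Serpina1b, the most abundant, had 174.3 against 3304 CPM. These 5 genes are near-identical, so the division of reads among them is uncertain. Cxcl1, a neutrophil-attracting chemokine, was the 1 gene of the 31 with a higher tumour sum, at 379.9 against 268.3 CPM, and was held by 18 of 41. Its log2 ratio ran from -0.12 to 1.36 over the pairs of plates, so no direction is given.

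The 18 genes that most tumour members held included proteases, receptors and complement factors. Ctsl, a lysosomal protease, was in 40 of 41 (1596 against 2895 CPM). Spint2, a serine protease inhibitor, was in 39 of 41 and ran from 0 through 462.8 to 2249 CPM, against 0 through 511.5 to 1354 CPM in the lymph node. Lifr, the leukaemia inhibitory factor receptor (chromosome 15 from 7090614 to 7197489), was in 38 of 41 and ran from 0 through 565.8 to 2302 CPM, against 0 through 579.7 to 4247 CPM. Both overlap over nearly the whole range. Their sums were 618.4 against 543.5 CPM and 687.2 against 644.3 CPM, and no direction is given for either. Both log2 ratios, 0.19 and 0.09, fell below 0 with size factors (-0.10 and -0.20), which shift the median log2 ratio of all genes from 0.33 to 0.00. For Lifr the ratio was also -0.16 without pool1, whose lymph node members had 464.5 CPM against 767.3 CPM on pool2, and -0.01 with totals that leave out mitochondrial genes and ribosomal RNA.

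Ubd, an interferon-inducible ubiquitin-like modifier (chromosome 17 from 37193892 to 37196095), had sums of 1284 and 1353 CPM but was spread differently. It was in 26 of 41 tumour members, from 0 through 251.01 to 10888 CPM, and in 97.2% of lymph node members, from 0 through 818.5 to 6304 CPM. Plates differed in both directions, at 1833 and 673 CPM on pool3 and pool4 and 948 and 1630 CPM on pool1 and pool2, so no direction is given. The complement genes Cfb (34 of 41, 488.3 against 1352 CPM) and C1ra (29 of 41, 240.4 against 284.6 CPM) were held by most tumour members too.

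Clu, Apoe and Enpp2 were common in the tumour members and yet at least 4-fold lower. Clu, a secreted chaperone and complement inhibitor (chromosome 14 from 65968483 to 65981547), was in 33 of 41, from 0 through 562.6 to 12094 CPM, against 1.65 through 32180 to 85691 CPM in the lymph node. Its sums were 1899 and 34410 CPM, 18.1-fold lower, and S325 carried 36.1% of the tumour counts, without which the difference was 26.7-fold. Apoe, a lipoprotein carrier, was in 32 of 41 at 855.5 against 5473 CPM, 6.40-fold lower.

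Enpp2 (chromosome 15 from 54838901 to 54952892) was in 24 of 41 tumour members, from 0 through 52.2 to 4205 CPM, and in every lymph node member, from 289.4 through 2810 to 12539 CPM. Its sums were 350.7 and 3452 CPM, 9.84-fold lower, or 13.6-fold without S256. For these genes the upper tumour cells reach into the lymph node range, while the tumour medians lie below the lymph node medians.

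**Figure D5:**
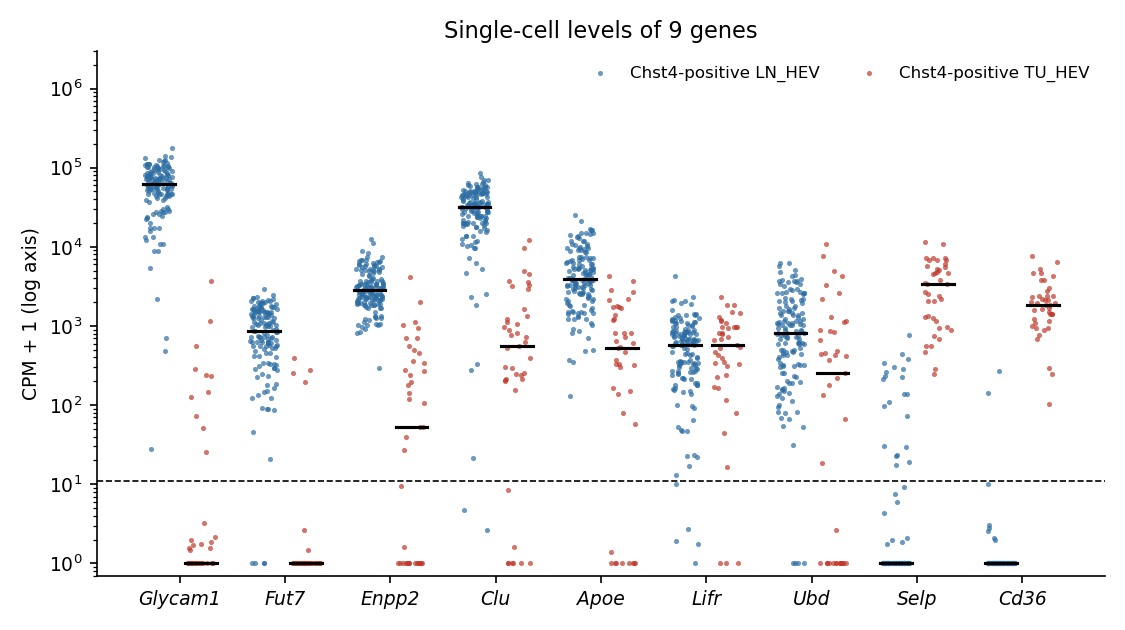
Level (CPM + 1, log axis) of 9 genes in each Chst4-positive LN_HEV (blue) and TU_HEV cell (red), with medians as bars and the limit of 10 CPM as a dashed line. Glycam1 and Fut7 are under the line in 30 and 37 of 41 red cells, Lifr and Ubd overlap, and Selp and Cd36 are above the line in every red cell.

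Other genes of the ligand pathway stood closer. Of the 12 measured genes for epitope and ligand synthesis, Gcnt1 and Fut7 were at least 4-fold lower. B4galt1, a galactosyltransferase, was at least 4-fold higher (158.8 against 33.2 CPM), and 9 genes lay between. The median log2 ratio of the 12 was -1.14. Over all 7324 measured genes 3.5% were lower and 7.52% higher by that much, and 6517 lay between. Among the 9, B3gnt3 stood at 106.5 against 31.6 CPM, 3.37-fold higher in the tumour. Chst2, the other sulfotransferase of the epitope, was in 15 of 41 tumour members at 50.1 against 197.7 CPM. Papss2, which makes the sulfate donor, stood at 77.1 against 286.3 CPM. Chst2 and Papss2, 3.94-fold and 3.71-fold lower, lay near the 4-fold limit. Each without its own top tumour cell, they were 4.40-fold and 5.03-fold lower. The sialyltransferases St3gal6 and St3gal4 stood at 256.8 against 468.0 CPM and at 249.1 against 128.9 CPM.

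Of the 7 measured mucin scaffolds, Glycam1 and Parm1 were at least 4-fold lower and none was at least 4-fold higher (3.5% and 7.52% over all measured genes). The median log2 ratio, 0.55, is that of Madcam1, a vascular addressin, and changed sign without pool3 (-0.29) and with the 11 pool1 libraries included (-0.31), so no direction is given. Madcam1 stood at 35.2 against 24.1 CPM, and 74.3% of its tumour counts lay in the pool3 cell S248, without which it was 2.61-fold lower in the tumour. Parm1 had 112.6 CPM in the lymph node and no tumour count. Cd34, a sialomucin of blood vessels, was in 41 of 41 tumour members, from 461.4 through 1701 to 4621 CPM, against 0 through 741.6 to 4048 CPM. Cd300lg, a mucin-like receptor of venules and capillaries, was in 40 of 41 at 626.8 against 783.6 CPM.

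Of the 15 measured genes of the lymphotoxin receptor and NF-kB, 13 lay within 4-fold (median log2 ratio 0.39). So did 6517 of all 7324 measured genes (median 0.33), and nothing about this pathway is read from the count. Ltbr, the receptor, stood at 127.1 against 54.3 CPM, and the non-canonical subunits Relb and Nfkb2 at 84.2 against 147.1 CPM and 97.2 against 136.2 CPM. Traf3, an adaptor that restrains the pathway, was lower (7.41 against 39.5 CPM, 5.33-fold, or 9.43-fold without the pool3 cell S223), and Tnfaip3, which dampens NF-kB signalling, was higher (402.5 against 90.6 CPM). Of 11 measured transcription factors of endothelial identity none was at least 4-fold lower, and Sox7 and Meox2 were at least 4-fold higher (median log2 ratio 0.48). The shares over all measured genes were 3.5% and 7.52%, and with so few factors nothing is read from the lack of lower ones.

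The genes described next were higher in the tumour members, by amounts that changed when the 11 pool1 libraries, which contain TU_HEV counts, were included. With them, the genes at least 4-fold higher were 4 of the 10 adhesion receptors in place of 5 and 6 of the 10 capillary genes in place of 8. They were also 7 of the 13 interferon-stimulated genes in place of 11 and 2 of the 9 basement membrane genes in place of 6. The share over all measured genes was 4.78% with them in place of 7.52%.

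Among 10 adhesion receptors, 5 were at least 4-fold higher in the tumour members and Jam3 was at least 4-fold lower. Over all measured genes 7.52% were higher and 3.5% lower by that much. The median log2 ratio was 2.32, beside 0.33 for all genes. Selp (P-selectin, which catches leukocytes on inflamed venules) was in 41 of 41 tumour members, from 245.6 through 3397 to 11426 CPM, and in 14.6% of lymph node members, where the highest had 776.8 CPM. Its sums were 3756 and 28.6 CPM, 131.2-fold higher, or 8.05-fold with the 11 pool1 libraries included (466.7 CPM in the lymph node). Sele (E-selectin) was in 35 of 41, at 652.4 against 13.3 CPM, 48.9-fold higher, or 6.02-fold with those libraries. The others were Vcam1, Vwf and Pvr. The chemokine receptor of venules, Ackr1, was in 38 of 41 at 3421 against 729.9 CPM, while Ackr2, a scavenger of chemokines, had no tumour count against 136.7 CPM.

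Of 10 capillary genes 8 were at least 4-fold higher (median log2 ratio 5.27), beside 7.52% of all measured genes. Cd36, a fatty acid receptor, ran from 101.6 through 1848 to 7566 CPM in the tumour members and was held by 1.39% of lymph node members, so the groups barely overlap. Its sums were 2192 and 1.89 CPM, 1161-fold higher (interval 1032 to 1312). With the 11 pool1 libraries included, the lymph node sum was 396.9 CPM and the difference 5.52-fold. The Chst4-negative tumour cells stood at 3009 CPM. Fabp4, a fatty acid binding protein, and Aqp1, a water channel, were in 41 of 41, at 1921 against 32.6 CPM and 1792 against 114.7 CPM, with lymph node sums of 380.4 and 285.5 CPM once the 11 libraries are included.

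Interferon-stimulated and basement membrane genes had median log2 ratios of 2.83 and 2.35. At least 4-fold higher were 11 of 13 interferon-stimulated genes, among them the transcription factor Irf1 (1059 against 127.3 CPM) and the T cell chemokine Cxcl9 (607.8 against 14.3 CPM). So were 6 of 9 basement membrane genes, among them the collagen IV chain Col4a1 (1281 against 201.04 CPM). The share over all measured genes was 7.52%. With the 11 libraries included Irf1 was 4.97-fold, Cxcl9 11.2-fold and Col4a1 3.88-fold higher.

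The 12 genes with the highest ratios in the tumour members were Car4, Il6, Hdc, Nqo1, Lgals3, Fgf23, Clca3a1, Cd36, Fblim1, Cald1, Hbegf and Cdh13. Il6, the cytokine, was in 20 of 41 tumour members, from 0 through 2.75 to 2711 CPM, and had no lymph node count, so it was at least 14921-fold higher (306.1 CPM). Hdc, which makes histamine, was in 20 of 41 at 385.3 CPM, with 4 lymph node counts. Car4, a carbonic anhydrase of capillaries, was in 17 of 41 at 383.6 CPM, with 1 lymph node count and a ratio of 56095 (interval 10067 to 2215719). All 12 genes also stood above their lymph node sums in the Chst4-negative tumour cells, so these ratios do not set the members apart from them. Il6, Hdc and Car4 had 247.99, 249.1 and 201.97 CPM in the Chst4-negative cells, and 27.6, 46.3 and 6.57 CPM in TU_EC. Cdh13, an anchored cadherin, stood at 88.6 CPM in the members, below the 738 CPM of the Chst4-negative tumour cells. With the 11 pool1 libraries included Il6 was 7.52-fold, Hdc 6.87-fold and Car4 8.55-fold higher.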

How the data were processed

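The deposited tables hold raw read counts per gene, one column a cell. Per the submitters' processing notes, the tools were Subread 1.4.6-p2, STAR 2.4.1b and FastQC 0.11.4, with mm10 (GRCm38). For the annotation and strand setting, the answer is not given in the sources used here. The 51826 features were summed to 51734 symbols, of which 92.1% were found in GENCODE mouse release M21, used for positions. Counts were summed per group and scaled by the total (Python 3.11.15, pandas 2.3.3, scipy 1.17.1). Intervals of ratios are exact conditional binomial, those of shares Clopper-Pearson. A group at 0 counts was set to 3 counts and its ratio given as a bound. The code was tested on simulated data. No test across cells was made, and no doublet caller was run on these singly sorted cells. The members, gene lists, definition of lymph node genes and naming rule were chosen with earlier results of these data known. Named were the 12 lymph node genes highest in the lymph node, those held by no tumour member, the 12 held by most tumour members, the 12 with the highest ratios in the tumour, and list members. Other genes were chosen after their values were seen. At least 3 markers of leukocytes were held by 2 lymph node members and of mural cells by 1, and by no tumour member. Hbb-bs was held by 1 lymph node member and Hba-a1 by 2. The other lists measured were lysophosphatidic acid and sphingosine 1-phosphate (9 genes, 1 at least 4-fold lower, 2 higher), homing chemokines (4 genes, 2 lower, 1 higher) and tip cells (4 genes, 3 higher). Over all measured genes 3.5% were lower and 7.52% higher by that much. Alternatives varied the Chst4 limit, scaling, depth, plates, libraries and gene rules. For 1 of the 11 genes held by no tumour member, the values are not reported here.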

Additional observations from a re-analysis of the deposited data

Results flagged for a closer look

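Wells under 50000 counts entered no comparison, yet those of the tumour HEV plates held signal that the same kind of TU_EC well did not. Glycam1 stood at 639.7 CPM in those of pool3 (77 counts, in 10 of 36 wells) and at 121.3 CPM in those of pool4 (25 counts, in 14 of 36 wells). Chst4 stood at 43.7 CPM in those of pool4 (9 counts, all in 1 well). TU_EC wells had no count of either gene, where 3 counts would come to 23.7 to 66.5 CPM by plate. Glycam1 stood at 218.05 and 102.2 CPM in the Chst4-positive cells of pool3 and pool4. The source of these reads was not tested.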

How the results depend on the processing

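Of 20 alternatives and 3 chosen after seeing the data, 17 were run on the 150 named genes, with no change of direction where the difference was at least 4-fold. Of the 11 absent genes, Ccl21a was held by a tumour cell with Chst4 at 1 count or more, and Ccl21a and Ggt5 were with holding at 1 count. Snhg18 without pool2 and Adcy5 with the 11 pool1 libraries included left the set of lymph node genes. Without pool3 Fut7, Cpeb2, Hap1 and Proser2 became absent, and without pool4, or without its cell S325, Mycn did. Asking for 30% of lymph node cells gave 21 absent genes. With a 4-fold margin over TU_EC there were 140 lymph node genes, 62 held by most, a median log2 ratio of -1.14 and a median of 68 held per tumour cell. With no rule on TU_EC these were 1296, 1110, 0.25 (the opposite sign) and 945. The median log2 ratio was -3.21 with size factors and -2.46 for a set chosen on pool2 and compared with pool1. Genes at least 4-fold lower were 3.5% of those measured, but 5.72% without pool3 (422 genes), 5.73% without pool4 (423) and 7.46% at 5 CPM (815). Genes at least 4-fold higher were 7.52% (551), but 12.9% without pool2 (911) and 4.78% with the 11 libraries included, and 9.82% at 5 CPM (1073). The median of the measured homing chemokine genes was -5.40 for the 4 of the main setting, 2.11 with Chst4 at 1 count and 0.85 without pool3. It is taken over the genes at 20 CPM in each setting, so the genes in it can change. Ccl21a and Ackr2 stayed below -13.6 and -6.51 in every alternative run on them. The positive medians therefore belong to another set of genes than the 4, not to a reversal of these values. The cause of the other shifts was not tested. No paired analysis was possible because each sample is 1 cell and no label pairs the plates. Depth limits the tumour members to 0.0424 CPM.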
